A study of Mus musculus with 5 samples.

Results

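Wnt ligands, their receptors and the proteins that modulate them were followed in the sciatic nerves of newborn mice that lack the transcription factor Ebf2. The members were chosen by gene symbol alone, from probe sets that the platform annotation assigns to 1 gene, and 42 of the 9407 genes so named in the table belonged to them, each with 1 of its 10361 probe sets. They comprised 12 Wnt ligands, 6 Frizzled receptors and the coreceptor Lrp6, 8 secreted inhibitors, 5 R-spondins or Lgr receptors, 4 Ror receptors or Daam proteins, 3 feedback proteins (Dact1, Nkd1 and Nkd2) and 3 Tcf/Lef transcription factors. Another 22 of the 64 RefSeq protein-coding genes with a fitting symbol, among them Axin2, Wif1, Notum, Tcf7, Lrp5 and Wnt6, were not analysed here.

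Sciatic nerves were taken at postnatal day 2 from the pups of Ebf2+/- parents on a C57Bl6N background and pooled by genotype, 12 nerves to a pool. The wild-type group (WT, Ebf2+/+) had 3 pools, numbered 1, 9 and 11, and the knockout group (KO, Ebf2-/-) had 2 pools, numbered 2 and 4. Each pool was hybridised to 1 Affymetrix array. The labels name no Cre or cell type restriction for the knockout, nor which part of the gene is missing, and they do not say how many animals or litters stand behind a pool.

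Wnt proteins are secreted, lipid-modified signals that bind Frizzled receptors. With the coreceptors Lrp5 or Lrp6 they stabilise beta-catenin, which works with Tcf/Lef factors on DNA, and with Ror receptors they act on the cytoskeleton without beta-catenin. In peripheral nerve, Wnt signalling is known for roles in Schwann cell development and myelination, and fibroblasts and vessels of the nerve use the pathway too.

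Levels below are on the log2 scale. Differences are given as log2 fold changes (KO mean minus WT mean, over 3 WT and 2 KO pools) with the standard error (SE) from limma. A gene was called at an adjusted p below 0.05 (Benjamini-Hochberg over all 10361 probe sets). A looser count took unadjusted p below 0.05 together with a change of at least 1.5-fold. Pool values always follow the order WT 1, WT 9, WT 11, KO 2, KO 4. Ebf2 itself stood at 11.55, 11.14 and 11.40 in the WT pools and at 9.25 and 8.74 in the KO pools, so every array lay on the side of its label. The Schwann lineage markers Sox10 and Erbb3 were present on all 5 arrays, with Sox10 from 11.24 to 11.65 and Erbb3 from 11.90 to 12.75. The table had a lower bound on spread, since the gap from the lowest pool to the second highest was never under 0.175, and the smallest such gap among the Wnt genes was also 0.175. Counts below therefore describe Wnt genes that vary between pools, set beside all probe sets under the same bound. The pools 9 and 11 of the WT group stood apart from WT pool 1 in skin and muscle genes and in other marker lists, with values given further on. The main differences are therefore also given against WT pool 1 alone.

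Among the 42 Wnt genes, Sfrp4 and Fzd4 rose in the KO pools and none fell. This is 2 of 42 called higher, beside 0.347% of all probe sets, and 0 called lower, beside 0.328%. By the looser count 7 were higher (Sfrp4, Dact1, Fzd4, Fzd7, Wnt5a, Ror1 and Daam1), beside 2.23% of all probe sets, and 0 were lower, beside 2.57%. At unadjusted p below 0.05 alone limma gave 13 higher, beside 7.14% of all probe sets, and 0 lower, beside 7.17%. Both KO pools lay above all WT pools in 16 of the 42, beside 17.5% of all probe sets, and below all of them in 1, Nkd1, beside 13.3%. The log2 fold change was above 0 in 33 members, beside 49.8% of all probe sets, with a median of 0.17 over the members and -0.0017 over all probe sets. No Wnt gene was called without WT pool 1, beside 6 of all probe sets, or without WT pool 9, beside 1. None was called after centring each array on its median (beside 1), after quantile normalisation (beside 1) or without moderation (beside 0). Sfrp4 alone was called without WT pool 11, beside 105 of all probe sets, and the main fit called 70. Without KO pool 2, without KO pool 4 and against WT pool 1 alone, 1 group held a single pool. In these fits the log2 fold change was 0.98, 0.83 and 0.53 for Sfrp4 and 0.83, 0.85 and 0.48 for Fzd4. A bulk nerve pool cannot tell fewer cells of a type from less RNA per cell, and this holds for each difference below.

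**Figure D1:**
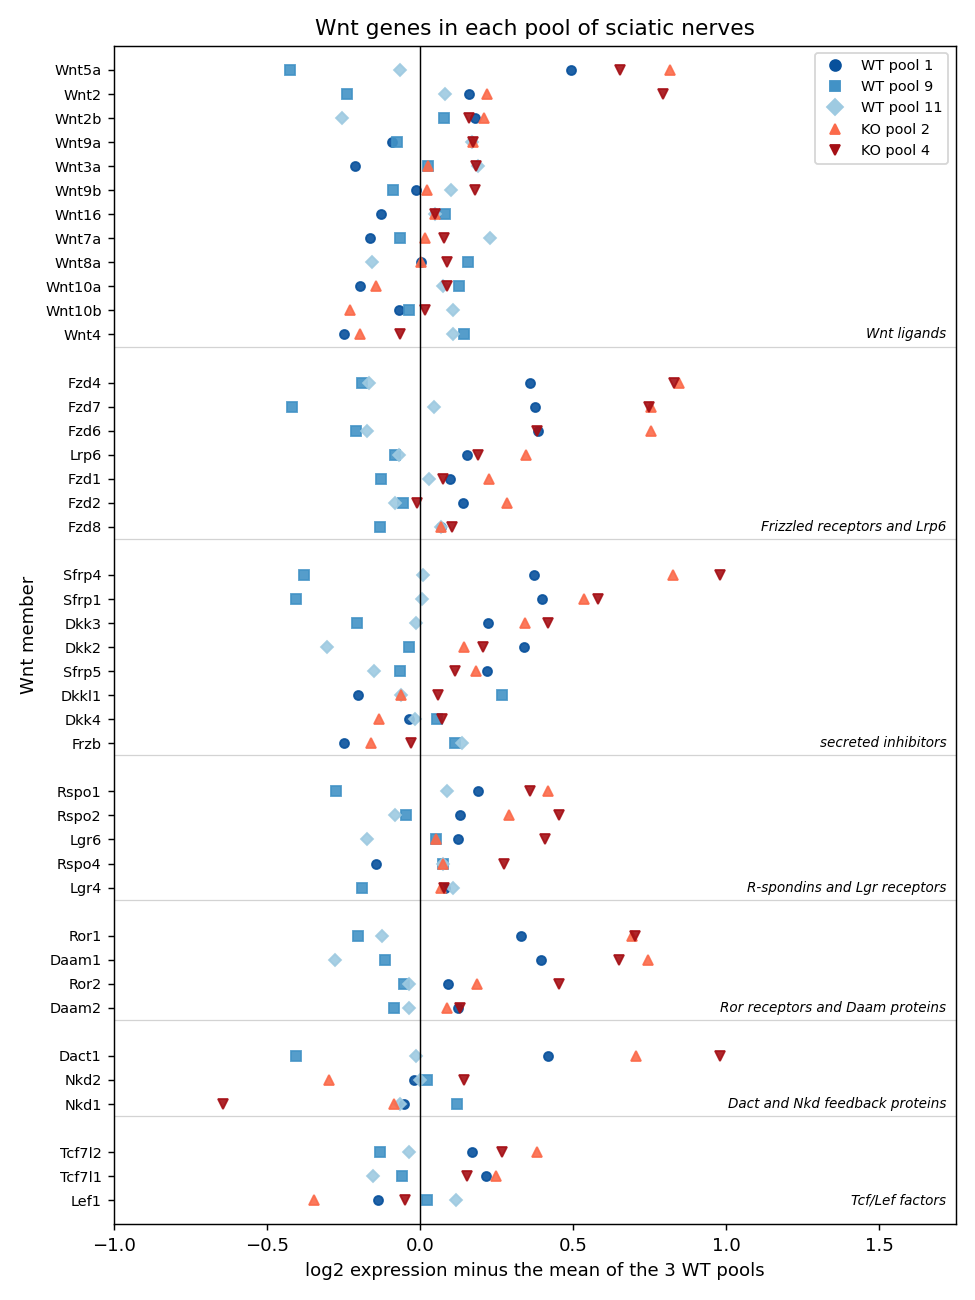
Each row is a Wnt gene and each symbol 1 pool, placed by its log2 expression minus the mean of the 3 WT pools (blue symbols WT, red symbols KO), with genes grouped by role and ordered by log2 fold change. In the rows of Wnt5a, Fzd4, Fzd7, Sfrp4, Ror1, Daam1 and Dact1 both red symbols lie to the right of all blue ones, with WT pool 1 the nearest blue symbol.

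The 12 ligands held 1 gene past the looser count, Wnt5a, and 0 calls. Wnt5a, the ligand best known for signalling without beta-catenin, read 9.52, 8.60 and 8.96 in the WT pools and 9.84 and 9.68 in the KO pools. Both KO pools were above every WT pool, but WT pool 1 lay closer to the KO pools than to WT pool 9. The log2 fold change of Wnt5a was 0.73 (SE 0.21, adjusted p = 0.106), and it was 0.24 against WT pool 1 alone. Wnt2, a ligand that acts through beta-catenin in many tissues, read 9.04, 8.64 and 8.96 in the WT pools and 9.10 and 9.67 in the KO pools (log2 fold change 0.51, SE 0.19, adjusted p = 0.225). Its difference came mostly from KO pool 4, and without that pool it was 0.22.

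The other ligands differed less. Wnt2b was at 0.18, Wnt9a at 0.17, Wnt3a and Wnt9b at 0.10 each, and Wnt16, Wnt7a and Wnt8a at 0.05 each on the log2 fold change scale. Wnt9a had no overlap between the genotypes, but by a margin of thousandths, with WT pool 11 at 8.886 and the KO pools at 8.890 and 8.891. Wnt10a was at -0.03, and Wnt10b at -0.11. Wnt4 had the lowest log2 fold change of the ligands and read 7.63, 8.02 and 7.98 in the WT pools and 7.68 and 7.81 in the KO pools (log2 fold change -0.13, SE 0.18, adjusted p = 0.720). WT pool 1 was the lowest of all 5 pools for Wnt4, so that both KO pools lay above it and the sign turned against that pool alone (0.12).

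The receptors were all higher in the KO mean, and Fzd4 was called. Fzd4, the Frizzled receptor that also binds norrin and is needed for retinal vessels, read 10.42, 9.87 and 9.90 in the WT pools and 10.91 and 10.89 in the KO pools. The KO pools were nearly equal, and both lay above WT pool 1, the highest WT pool. The WT mean was 10.06 ± 0.31 (SD, n = 3) and the KO mean 10.90 ± 0.01 (SD, n = 2), a 1.79-fold rise (log2 fold change 0.84, SE 0.19, adjusted p = 0.0380 by limma). Against WT pool 1 alone the log2 fold change was 0.48 (limma adjusted p = 0.857).

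Fzd7, a Frizzled receptor of stem and progenitor cells in many tissues, had nearly the same profile. It read 10.77, 9.98 and 10.44 in the WT pools and 11.15 and 11.14 in the KO pools (log2 fold change 0.75, SE 0.20, adjusted p = 0.0796). Against WT pool 1 alone the value was 0.38. Fzd6, which is known for planar cell polarity of skin and hair, read 9.25, 8.65 and 8.69 in the WT pools and 9.62 and 9.25 in the KO pools. KO pool 4 was level with WT pool 1 for Fzd6, so the genotypes overlapped (log2 fold change 0.57, SE 0.20, adjusted p = 0.177). The coreceptor Lrp6 was at 0.27, Fzd1 at 0.15 and Fzd2 at 0.14, the last of them at -0.003 against WT pool 1 alone. Fzd8 had the smallest difference of the receptors, reading 10.67, 10.47 and 10.67 in the WT pools and 10.67 and 10.71 in the KO pools (log2 fold change 0.09, SE 0.17, adjusted p = 0.800).

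The promoters of Fzd4, Ror1 and Daam1, which passed the looser count, are printed as examples. Ror1 and Daam1 were taken because their windows hold the core letters of a TCF/LEF motif. The windows run from 250 bases before to 50 bases after the RefSeq start of the gene in GRCm38.p6, 5′ to 3′ on the strand of the gene. Capitals mark CTTTGA or its reverse complement. The Fzd4 window (chr7:89404116-89404415, + strand) has none, the Ror1 window (chr4:100095541-100095840, + strand) has 1, beginning at base -205 from the start site, and the Daam1 window (chr12:71830818-71831117, + strand) has 1, beginning at base -40. A second Daam1 window, at another start (chr12:71889293-71889592, + strand), has none and is not printed. The windows of Fzd7 and Dact1, which also passed the looser count, have none either and are not printed.
Fzd4: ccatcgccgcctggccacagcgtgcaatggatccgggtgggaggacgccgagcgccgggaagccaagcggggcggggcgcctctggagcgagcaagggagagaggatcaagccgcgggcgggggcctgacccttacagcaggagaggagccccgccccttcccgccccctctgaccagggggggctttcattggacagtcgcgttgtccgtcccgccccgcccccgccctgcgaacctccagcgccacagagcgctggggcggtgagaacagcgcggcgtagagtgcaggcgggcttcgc
Ror1: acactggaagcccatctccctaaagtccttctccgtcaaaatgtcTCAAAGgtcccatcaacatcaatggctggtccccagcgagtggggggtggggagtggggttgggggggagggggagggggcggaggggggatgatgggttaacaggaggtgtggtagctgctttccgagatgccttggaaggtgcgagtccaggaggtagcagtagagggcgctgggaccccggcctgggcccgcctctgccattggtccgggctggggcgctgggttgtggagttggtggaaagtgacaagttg
Daam1: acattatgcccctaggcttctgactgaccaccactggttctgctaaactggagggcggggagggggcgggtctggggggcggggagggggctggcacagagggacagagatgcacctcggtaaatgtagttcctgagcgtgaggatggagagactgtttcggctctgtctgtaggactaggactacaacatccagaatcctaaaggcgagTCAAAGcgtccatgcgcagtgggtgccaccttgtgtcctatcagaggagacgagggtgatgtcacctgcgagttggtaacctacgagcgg

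Promoter windows were found for 30 of the 42 genes, with 36 windows in all, and for 5 of the 7 genes past the looser count (not Sfrp4 or Wnt5a). CTTTGA, searched on both strands, was in 5 of the 36 windows (13.9%), beside 16.0% of all 32851 windows. CCCNNGGGA, most of the palindrome bound by early B cell factors, was searched on both strands too and was in 3 of the 36 windows (8.33%; Frzb, Wnt10b and Sfrp5), beside 6.56% of all windows, and in 0 of the 5 genes past the looser count. No match of one motif overlapped a match of the other in these windows. These shares describe letters in short windows and carry no statement about binding.

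Secreted inhibitors held the largest rise. Sfrp4, a secreted Frizzled-related protein that binds Wnts outside the cell, read 10.68, 9.93 and 10.32 in the WT pools and 11.13 and 11.29 in the KO pools. Both KO pools lay above every WT pool, with WT pool 9 the lowest. The WT mean was 10.31 ± 0.38 (SD, n = 3) and the KO mean 11.21 ± 0.11 (SD, n = 2), a 1.87-fold rise (log2 fold change 0.90, SE 0.20, adjusted p = 0.0359 by limma). It was 0.53 against WT pool 1 alone (limma adjusted p = 0.857). Its relative Sfrp1 read 12.45, 11.65 and 12.06 in the WT pools and 12.59 and 12.64 in the KO pools (log2 fold change 0.56, SE 0.20, adjusted p = 0.195). Sfrp1 kept the genotypes apart, but by a small gap, and its difference from WT pool 1 alone was 0.16.

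Dkk3, a Dickkopf-family glycoprotein, was at 0.38 (SE 0.18, adjusted p = 0.325), with no overlap between the genotypes and 0.16 against WT pool 1 alone. Dkk2, an Lrp5/6-binding Dickkopf, was at 0.17 and Sfrp5 at 0.15, and both turned below 0 against WT pool 1 alone (-0.17 and -0.07). Dkkl1, a Dickkopf-like protein, and Dkk4 were at -0.0038 and -0.03. Frzb, also called Sfrp3, had the lowest log2 fold change of the inhibitors and read 6.77, 7.14 and 7.16 in the WT pools and 6.86 and 6.99 in the KO pools (log2 fold change -0.10, SE 0.18, adjusted p = 0.789). WT pool 1 was the lowest pool for Frzb and Dkkl1, while it was the highest of the WT pools for Sfrp1, Sfrp4, Sfrp5, Dkk2 and Dkk3.

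R-spondins strengthen Wnt signals by binding Lgr receptors and keeping Frizzled receptors at the cell surface. All 5 measured genes of this group had values above 0, and 0 were called. Rspo1 read 9.39, 8.93 and 9.29 in the WT pools and 9.62 and 9.56 in the KO pools (log2 fold change 0.39, SE 0.18, adjusted p = 0.323). Rspo2 read 7.98, 7.80 and 7.77 in the WT pools and 8.14 and 8.30 in the KO pools (log2 fold change 0.37, SE 0.17, adjusted p = 0.318). In both R-spondin genes the KO pools lay above all WT pools, while Lgr6 (0.23) and Rspo4 (0.17) overlapped. Lgr4, the R-spondin receptor, had the lowest log2 fold change of the group and read 11.71, 11.44 and 11.73 in the WT pools and 11.69 and 11.70 in the KO pools (log2 fold change 0.07, SE 0.17, adjusted p = 0.837).

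Ror receptors bind Wnt5a, and Daam proteins are formins that link Dishevelled to the actin cytoskeleton. Ror1 read 10.50, 9.96 and 10.04 in the WT pools and 10.86 and 10.87 in the KO pools. The KO pools were nearly equal, and WT pool 1 lay between them and the other WT pools. The log2 fold change of Ror1 was 0.70 (SE 0.18, adjusted p = 0.0773) and was 0.37 with WT pool 1 as the only reference. Daam1 read 10.06, 9.55 and 9.38 in the WT pools and 10.41 and 10.31 in the KO pools, with the same order of the groups (log2 fold change 0.70, SE 0.19, adjusted p = 0.0946). With WT pool 1 as the only reference it was 0.30. Ror2, the other Wnt5a receptor of the pair, was at 0.32 (SE 0.17, adjusted p = 0.400) with no overlap between the genotypes. Daam2 had the lowest log2 fold change of the group and read 9.80, 9.59 and 9.64 in the WT pools and 9.76 and 9.81 in the KO pools (log2 fold change 0.11, SE 0.17, adjusted p = 0.752). It overlapped, with KO pool 2 below WT pool 1.

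The feedback proteins that bind Dishevelled stood on both sides of 0. Dact1, which antagonises or redirects Wnt signals at Dishevelled, read 11.46, 10.63 and 11.03 in the WT pools and 11.74 and 12.02 in the KO pools. The KO pools were above all WT pools (log2 fold change 0.84, SE 0.21, adjusted p = 0.0615), and the difference was 0.42 against WT pool 1 alone. Dact1 and Daam1 are neighbours on chromosome 12 in RefSeq (GRCm38.p6), with 0 protein-coding genes starting between them. Nkd1, an inhibitor that Wnt signalling itself induces, had the lowest log2 fold change of the 42 genes. It read 10.63, 10.80 and 10.62 in the WT pools and 10.60 and 10.04 in the KO pools (log2 fold change -0.37, SE 0.18, adjusted p = 0.377). KO pool 2 lay just under the lowest WT pool, and without KO pool 4 the log2 fold change was -0.09. Nkd2, its relative, was at -0.08, with KO pool 2 the lowest and KO pool 4 the highest of the 5 pools.

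Tcf/Lef factors carry the beta-catenin signal to DNA, and 0 of 3 passed. Tcf7l2 read 10.37, 10.07 and 10.16 in the WT pools and 10.58 and 10.47 in the KO pools (log2 fold change 0.33, SE 0.17, adjusted p = 0.394). Its genotypes did not overlap, while those of Tcf7l1 did (0.20, or -0.02 against WT pool 1 alone). Lef1, which is itself a common target of the pathway, read 7.63, 7.79 and 7.89 in the WT pools and 7.42 and 7.72 in the KO pools (log2 fold change -0.20, SE 0.17, adjusted p = 0.613). KO pool 4 lay between the WT pools for Lef1.

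**Figure D2:**
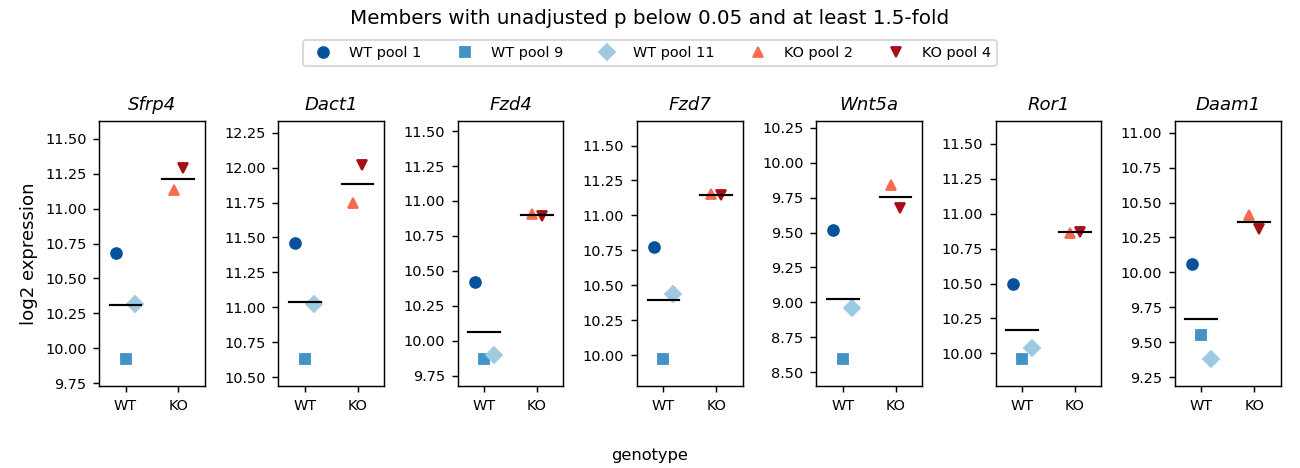
The 7 Wnt genes past the looser count are shown by their log2 expression (vertical axis, with the same span but another start in each panel) in each WT pool and KO pool, with horizontal lines at the group means. In every panel both KO pools lie above all 3 WT pools, which largely follows from how the genes were picked, and WT pool 1 is the highest WT pool.

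The 7 genes past the looser count had the same order of groups. They were picked for a difference between the genotypes, so the KO pools lying highest largely follows from that choice. WT pool 1 was the highest WT pool in all 7 and in 24 of the 42 Wnt genes. The share over all probe sets, not limited to those past the looser count, was 40.4%. Their mean was 10.49, 9.79 and 10.01 in the WT pools and 10.86 and 10.89 in the KO pools. Wild-type pools 1 and 9 thus differed by more than WT pool 1 and either KO pool did. Against WT pool 1 alone the 7 log2 fold changes ran from 0.24 (Wnt5a) to 0.53 (Sfrp4), and both KO pools lay above WT pool 1 in 25 of the 42 Wnt genes, beside 36.7% of all probe sets. The median over the 42 genes was 0.16 against WT pool 1 alone, beside 0.0055 over all probe sets.

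**Figure D3:**
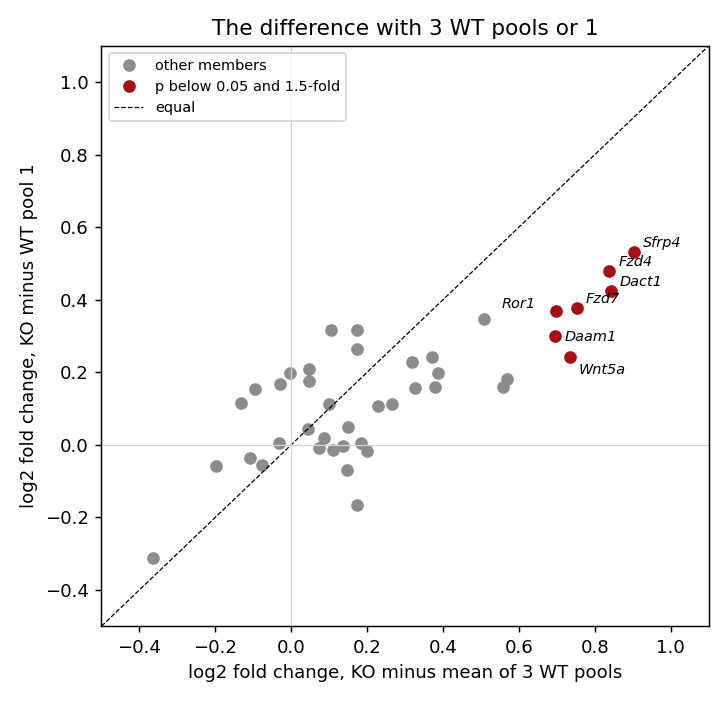
For each of the 42 Wnt genes the log2 fold change against the mean of the 3 WT pools (horizontal axis) is plotted against that from WT pool 1 alone (vertical axis), so that both axes share the KO pools and WT pool 1. The 7 genes past the looser count (red) lie between 0.70 and 0.90 on the horizontal axis and between 0.24 and 0.53 on the vertical axis, under the dashed line of equal values.

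Markers of other cell types moved with the pools. Of 12 keratinocyte markers 11 were measured, and the sum of their levels on the linear scale ran from 1804 to 13220 over the WT pools and from 1918 to 2317 over the KO pools. All 14 skeletal muscle markers were measured, with sums from 23630 to 68530 in WT and from 31700 to 37200 in KO. In both lists WT pools 9 and 11, where the 7 Wnt genes were lowest, had the highest means (keratinocyte 9.42 and 8.70 against 7.29 in WT pool 1, skeletal muscle 11.60 and 11.39 against 10.01). Both pools were also highest for adipocyte markers (5 of 9 measured, 7.33 and 7.21 against 6.88) and for the myelinating Schwann cell markers given below. In other lists these 2 pools had the lowest means, though not in every gene (of the WT pools, Mcam was highest in WT pool 9 and Top2a in WT pool 11). Among them were pericytes and smooth muscle (9 of 10 markers measured, sums from 15590 to 22860 in WT and from 21370 to 22520 in KO). Endothelium (11 of 11 measured, from 16380 to 22050 and from 23190 to 25350) and dividing cells (9 of 10 measured, from 16400 to 25780 and from 26730 to 27170) were others. The mean log2 value of the dividing cell list overlapped between the genotypes (WT pool 1 at 10.93, KO pool 4 at 10.89). Further such lists were perineurium (6 of 10 measured, from 10000 to 13670 and from 15040 to 15290) and nerve fibroblasts (8 of 12 measured, from 32320 to 37600 and from 39730 to 41260). Tendon and cartilage was a further list (7 of 10 measured, from 8673 to 10230 and from 12590 to 13350). In the perineurium list 5 of 6 genes lay above 0, beside 49.8% of all probe sets, while Slc2a1 (-0.43) was lower without overlap. Moxd1 was the gene called in this list (log2 fold change 1.62, adjusted p = 1.2e-04 by limma). The list median was 0.31, and 0.05 against WT pool 1 alone. The mean log2 value of the fibroblast list overlapped between the genotypes (11.46, 11.29 and 11.36 in the WT pools, 11.49 and 11.43 in the KO pools), and 2 of its 8 genes, Sox9 and Osr2, had log2 fold changes below 0 (-0.69 and -0.26). Of the 7 tendon and cartilage genes 5 lay above 0, with a list median of 0.13, while Scx (-0.04) and Col2a1 (-0.17) lay below 0. Kera had the largest log2 fold change of this list and was called (1.99, adjusted p = 5.0e-05 by limma). It read 10.40, 9.44 and 9.78 in the WT pools and 11.82 and 11.90 in the KO pools, so the sums of the list lean on this gene. Of 10 macrophage markers 4 were measured, with sums from 3400 to 3436 in WT and from 2571 to 3536 in KO. Adipocyte sums ran from 684.2 to 960.7 in WT and from 645.3 to 756.4 in KO. Array values are never 0 (the lowest in the table was 2.84), and the part of these cell types in the Wnt differences was not tested.

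Markers of myelinating Schwann cells lay lower in the KO pools. Of 14 myelinating Schwann cell markers 9 were measured, with sums from 31590 to 39660 in WT and from 20960 to 24840 in KO. Their mean log2 value was 11.04, 11.51 and 11.20 in the WT pools and 10.54 and 10.09 in the KO pools, so WT pools 9 and 11 were highest here too. Of 10 Schwann lineage markers 6 were measured, with sums from 20120 to 20750 in WT and from 15670 to 19820 in KO. On the log2 scale 3 of these 6 lay above 0 and the median was -0.09. The mean of the list in KO pool 2 (11.56) lay between those of the WT pools (11.49 to 11.60), while that in KO pool 4 (11.30) lay below them all. Erbb3 (-0.47) and Cdh19 (-0.56) were lower without overlap, and the other measured genes of the list overlapped.

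**Figure D4:**
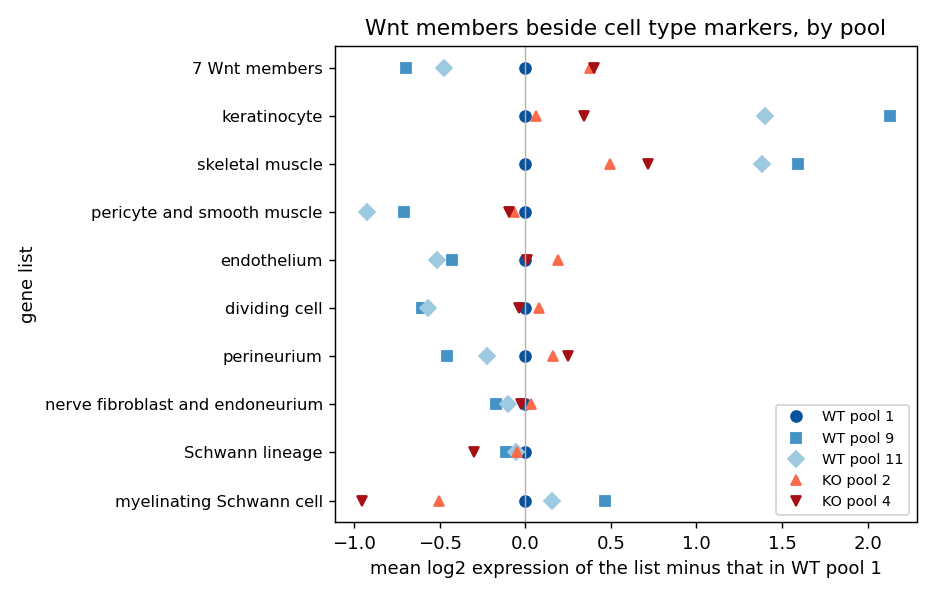
Each row is the mean log2 expression of a gene list in each pool minus its mean in WT pool 1 (blue symbols WT, red symbols KO). WT pools 9 and 11 lie left of 0 for the 7 Wnt genes and for the pericyte, endothelial, dividing cell, perineurium, nerve fibroblast and Schwann lineage markers. They lie right of 0 for keratinocyte, skeletal muscle and myelinating Schwann cell markers.

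The rest of the pathway was covered by 6 lists of 128 further genes, of which 73 were measured. By limma 0 of the 73 were called in either direction, while 11 were higher and 2 lower at unadjusted p below 0.05, beside 7.14% and 7.17% of all probe sets. In all 42 of the 73 had log2 fold changes above 0, beside 49.8%. By the looser count 3 were higher and 1 was lower, beside 2.23% and 2.57%. Prickle1, a planar cell polarity protein that works beside Frizzled receptors, read 9.00, 8.54 and 8.96 in the WT pools and 9.35 and 9.87 in the KO pools (log2 fold change 0.78, SE 0.19, adjusted p = 0.0658). It differed from WT pool 1 alone by 0.61, the largest such value of the 3 genes. Sulf1, which trims heparan sulfate that holds Wnts at the cell surface, was at 0.59 (SE 0.18, adjusted p = 0.138), and Tle4, a corepressor of Tcf/Lef factors, at 0.60 (SE 0.20, adjusted p = 0.162), with 0.26 and 0.21 against WT pool 1 alone.

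Sox9, a transcription factor of fibroblasts and cartilage that also interacts with beta-catenin, was the gene that was lower, and it also stands on the nerve fibroblast list. It read 10.07, 9.82 and 9.91 in the WT pools and 9.47 and 9.01 in the KO pools (log2 fold change -0.69, SE 0.18, adjusted p = 0.0749). Both KO pools lay below every WT pool, and the difference from WT pool 1 alone was -0.82. By list, the 15 measured genes of Wnt secretion and extracellular handling had a median log2 fold change of 0.26 and the 13 nuclear cofactors 0.17. The 11 common beta-catenin targets outside the 42 genes had a median of 0.14, with 6 of the 11 above 0. Linear sums of these 11 ran from 25760 to 27210 in WT and from 24960 to 25300 in KO. Such sums weigh the brightest genes most, here Id2 and Ccnd1 (both at -0.22). The mean log2 value of the 11 went the other way. It was 10.215, 10.161 and 10.197 in the WT pools and 10.224 and 10.331 in the KO pools. Lef1 (-0.20) and Nkd1 (-0.37) also stand on the target list but, as members of the 42, were left out of the median, sums and means. The 13 genes of the calcium and small GTPase branches had a median of 0.09, the 8 genes of the cytoplasmic core 0.04 and the 15 membrane partners -0.02. Over all probe sets the median was -0.0017.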

How the data were processed

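The deposited table held log2 values for each probe set on each array, deposited by the authors, who used RMA according to the submitters' processing notes. Version, settings and any filter on probe sets: not given in the sources used here. RMA equalises arrays, which sets every value relative to the rest of its array. Array medians ran from 8.93 (KO pool 4) to 9.11.

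Of 10361 probe sets 9411 had 1 gene symbol in the platform annotation, 384 several and 566 none. The genotypes were compared over the whole table with limma 3.58.1 in R 4.3.3 (lmFit and eBayes, default prior, no covariates, two-sided), with 3 residual and 17.4 prior degrees of freedom. The fit was tested on simulated data with known changes. The p-values rest on the spread among 5 arrays, which limits the precision and may in part be technical. There were 12 alternative settings. The members and lists were chosen with earlier results of these data known. Pool values were given for Wnt genes called or past the looser count and for the highest and lowest log2 fold change within each role. Those of Wnt2, Fzd6, Sfrp1, Rspo2, Prickle1 and Sox9 were added after their values were seen. Where a gene of a list had several probe sets, the one with the highest mean stood for it.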

Additional observations from a re-analysis of the deposited data

How the results depend on the processing

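The median log2 fold change of the 42 Wnt genes stayed between 0.14 and 0.23 over the 12 alternatives, within the spread between pools. The number of calls did not hold. Over all probe sets the fit called 70, against 1 after centring each array on its median, 1 after quantile normalisation, 158 with an intensity trend, 148 with a robust prior, 0 without moderation and 0 against WT pool 1 alone, and 0 to 105 when 1 pool was left out. Of the Wnt genes 2 were called, against 0 after centring, 0 after quantile normalisation, 5 with a trend, 6 with a robust prior, 0 without moderation, 0 against WT pool 1 alone, and 0 to 1 when 1 pool was left out. Fzd4 was called in 3 and Sfrp4 in 4 of the 12 alternatives, with adjusted p from 0.00580 to 0.857 and from 0.00811 to 0.857 by limma. Without WT pool 11 Sfrp4 was called and Fzd4 was not, and both stayed above 0 throughout, from 0.48 to 1.02 and from 0.53 to 1.09. The looser count of 7 became 2 without moderation, 0 against WT pool 1 alone and 1 to 10 when 1 pool was left out (1 without KO pool 4, and 4 without KO pool 2, of which 3 were higher and 1, Nkd1 at -0.64, was lower). For the other pathway genes 0 calls became 1 with a trend and 2 with a robust prior, and stayed at 0 when 1 pool was left out. Their looser count of 4 became 1 without moderation, 0 against WT pool 1 alone and 1 to 7 when 1 pool was left out. The looser count over all probe sets was taken for the main fit only. Changes of this count particular to the Wnt genes therefore cannot be told from changes over the whole table. The cause of these changes was not tested.

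Genes with small differences changed sign. After centring, Wnt10a was at 0.0297, Dkkl1 at 0.0553 and Dkk4 at 0.0275, and after quantile normalisation Wnt10a was at 0.0345 and Dkkl1 at 0.0227. Against WT pool 1 alone the values were 0.17 for Wnt10a, 0.12 for Wnt4, -0.003 for Fzd2, -0.17 for Dkk2, -0.07 for Sfrp5, 0.20 for Dkkl1, 0.006 for Dkk4, 0.15 for Frzb, -0.0095 for Lgr4, -0.015 for Daam2 and -0.0155 for Tcf7l1. When 1 pool was left out, the range crossed 0 for Wnt3a (-0.0025 to 0.1985), Wnt16 (-0.017 to 0.0875), Wnt7a (-0.035 to 0.1605), Wnt8a (-0.034 to 0.1235), Wnt10a (-0.145 to 0.086), Wnt10b (-0.23 to 0.014), Fzd2 (-0.01 to 0.284), Dkkl1 (-0.1055 to 0.13), Dkk4 (-0.1337 to 0.0703), Lgr4 (-0.0225 to 0.126) and Nkd2 (-0.2997 to 0.1443). A filter at the 25th percentile of the mean left 35 of the 42 genes, with the same 2 calls. No detection calls were used, so signal over background is unknown for the dimmer genes. No paired analysis was possible because the WT and KO pools share no pool number.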
